A study of Mus musculus with 3 samples.

Results

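The immediate early and heat shock genes described here are 37 of the 27040 genes shared by the 3 count matrices. They were taken by gene name as a list and not by their level. They comprise 9 AP-1 genes (Fos, Fosb, Fosl1, Fosl2, Jun, Junb, Jund, Atf3 and Maff), 8 further early transcription factor genes of the Egr, Nr4a and Klf families (Egr1, Egr2, Egr3, Nr4a1, Nr4a2, Nr4a3, Klf2 and Klf6), 15 feedback and survival genes (Ier2, Ier3, Ier5, Dusp1, Btg1, Btg2, Zfp36, Zfp36l1, Socs3, Gadd45b, Gadd45g, Csrnp1, Mcl1, Nfkbia and Rhob) and 5 heat shock genes (Hspa1a, Hspa1b, Hsph1, Dnajb1 and Hspa8). All 37 were present in each matrix. They were chosen with earlier results of these data known.

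The study profiled single cells of mouse mandibular molars, sorted by fluorescent reporters of Cxcl12, a chemokine gene of stromal cells, and at the later age also of the collagen gene Col1a1. Cxcl12-GFP P6 came from Cxcl12-GFP/+ mice at postnatal day 6 and was sorted for GFP, which marks cells with an active Cxcl12 locus. Cxcl12-creER P6 was sorted for tdTomato from Cxcl12-creER; R26R(tdTomato/+) mice at day 6, in which a tamoxifen-inducible recombinase under Cxcl12 control switches on a permanent tdTomato label. P25 came from Col1a1-GFP; Cxcl12-creER; R26R(tdTomato/+) mice at day 25, with cells carrying GFP, tdTomato or both. The sources used here name neither the time of tamoxifen nor the number of mice per library. Each group was 1 library. No difference below therefore has a replicate check or a p-value, the 95% intervals that follow values reflect nothing but counting error, and age, genotype, gate and library cannot be told apart between P25 and either day 6 library.

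Immediate early genes are switched on within minutes of a stimulus by kinases that act on factors already present in the cell, without new protein synthesis. Their products include transcription factors (AP-1 dimers of Fos and Jun proteins, Egr zinc finger factors, Nr4a nuclear receptors) and inhibitors that close the response, such as the phosphatase Dusp1, the RNA-decay factor Zfp36 (tristetraprolin), the cytokine signalling inhibitor Socs3 and the NF-kB inhibitor Nfkbia. Heat shock genes answer unfolded protein through heat shock factor 1, with Hspa1a and Hspa1b encoding inducible Hsp70, Dnajb1 its Hsp40 partner, Hsph1 an Hsp110 chaperone and Hspa8 the constitutive Hsc70. Growth factors, stretch, heat and enzymatic dissociation are all known to induce such genes, and every library here was dissociated with enzymes.

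The 250 bases before the transcription start are shown for 4 members that the results below turn on, because Hspa1a and Hspa1b are near copies and Jun and Btg2 carry one of the searched motifs. The windows are from RefSeq (GRCm38.p6), each on the strand of its gene, written 5′ to 3′, and capitals mark a heat shock element core (GAANNTTC) in Hspa1a, Hspa1b and Jun and a cyclic AMP response element (TGACGTCA) in Btg2. Hspa1a lies at chr17:34972157-34972406 (minus strand), Hspa1b at chr17:34959239-34959488 (minus), Jun at chr4:95052223-95052472 (minus) and Btg2 at chr1:134079156-134079405 (minus).
Hspa1a: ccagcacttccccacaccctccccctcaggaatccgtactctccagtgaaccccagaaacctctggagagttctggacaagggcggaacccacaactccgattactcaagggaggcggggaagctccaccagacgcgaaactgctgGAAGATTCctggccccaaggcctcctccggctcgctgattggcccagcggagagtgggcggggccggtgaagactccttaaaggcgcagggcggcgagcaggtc
Hspa1b: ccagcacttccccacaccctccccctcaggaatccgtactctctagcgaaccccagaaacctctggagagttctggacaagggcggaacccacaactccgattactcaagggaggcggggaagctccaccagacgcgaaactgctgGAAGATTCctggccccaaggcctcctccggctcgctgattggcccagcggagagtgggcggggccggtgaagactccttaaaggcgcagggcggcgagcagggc
Jun: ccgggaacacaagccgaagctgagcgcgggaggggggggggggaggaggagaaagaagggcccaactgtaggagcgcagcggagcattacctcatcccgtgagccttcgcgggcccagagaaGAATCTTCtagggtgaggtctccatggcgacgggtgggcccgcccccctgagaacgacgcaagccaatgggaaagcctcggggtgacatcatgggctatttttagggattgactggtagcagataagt
Btg2: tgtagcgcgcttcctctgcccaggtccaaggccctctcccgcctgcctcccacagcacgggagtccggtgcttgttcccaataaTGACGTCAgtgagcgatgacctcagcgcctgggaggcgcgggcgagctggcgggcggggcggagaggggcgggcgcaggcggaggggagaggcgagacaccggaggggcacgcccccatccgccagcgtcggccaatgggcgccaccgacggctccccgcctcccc
The Hspa1a and Hspa1b windows were identical at 247 of 250 bases, and the marked core began 104 bases before the start in both. In Jun it began 128 bases before the start, and the element in Btg2 began 166 bases before it.

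A window was found for 32 of the 37 members, and 4 motifs were searched on both strands, with no overlap counted between motifs. GAANNTTC was in the windows of 4 of the 32 members (Hspa1a, Hspa1b, Jun and Fosl2) and in those of 7.73% of all 27018 genes. TGACGTCA was in 3 members (Btg2, Dusp1 and Maff) against 1.77% of all genes. The AP-1 site TGANTCA was in 2 (Zfp36l1 and Csrnp1) against 7.82%, and the CArG box bound by serum response factor was in 2 (Egr2 and Zfp36) against 1.62%. These are matches of letters within a short window and describe nothing about binding. Because the 3′ ends are what the libraries count, the ends of the paired Hsp70 transcripts were also compared. None (0) of the 411 stretches of 90 bases in the last 500 bases of Hspa1a occurred in Hspa1b, and 0 of 411 the other way, although 49.3% of the stretches over the whole Hspa1a transcript did. Their counts therefore come from ends that differ, and reads from a stretch that both transcripts hold cannot be assigned to 1 of the 2 genes.

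After filtering, 7065, 1121 and 5401 cells were kept in Cxcl12-GFP P6, Cxcl12-creER P6 and P25, with medians of 8138, 1459 and 14753 UMIs per cell and 3.11%, 2.93% and 4.80% mitochondrial UMIs. Depth, feature list and barcodes also differed between the libraries, and these cannot be told apart from the groups. Cxcl12-creER P6 was the shallowest, was counted against a list of 32286 features in place of 28006, and lost 536 of 1691 barcodes for holding too few genes. The first 8 bases were shared with some P25 barcode in 82.3% of its barcodes and in 21.0% of those of the other day 6 library. The labels name 1 chemistry for all 3 libraries, but whether Cxcl12-GFP P6 was made with it was not tested, and another chemistry would bear on every ratio with that library. Whole barcodes were shared by 0, 1 and 5 cells between the pairs of libraries. Cells were grouped by marker genes within each library, without the members among the genes used for clustering, and all names below mean cells like the type named. The labels call the cells mesenchymal, yet P25 also held 233 macrophage-like, 189 neutrophil-like, 64 osteoclast-like and 109 epithelial cells.

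The members together took 1.94% of all UMIs in Cxcl12-GFP P6, 0.633% in Cxcl12-creER P6 and 2.03% at P25. The AP-1 genes held the most, at 0.940%, 0.270% and 1.01%, followed by the feedback genes at 0.593%, 0.203% and 0.645%, the Egr, Nr4a and Klf genes at 0.207%, 0.0545% and 0.241%, and the heat shock genes at 0.205%, 0.105% and 0.139%. Levels are given below as CPM, the summed UMIs of a gene scaled to one fixed total for all shared genes of a class or library. At or above 20 CPM were 31, 27 and 33 of the 37 members.

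Over all kept cells, Fos stood at 4394 CPM (4377 to 4411) in Cxcl12-GFP P6, 822 CPM (798 to 845) in Cxcl12-creER P6 and 3597 CPM (3585 to 3610) at P25. Jun stood at 1034, 544 and 1845 CPM, and Egr1 at 668, 324 and 972 CPM, in the same order. Cxcl12-creER P6 was the lowest for each of these 3 genes, while the other two libraries changed places between Fos and the pair Jun and Egr1. Hspa1a stood at 64.2, 5.13 and 104 CPM and Hspa1b at 5.58, 6.01 and 47.8 CPM, so that Hspa1b was low in both day 6 libraries. Atf3, an ATF/CREB family factor of stress responses, stood at 13.0, 3.18 and 294 CPM and was low in both day 6 libraries. Egr3 ran the other way, at 0.409, 12.7 and 1.06 CPM, and its excess in Cxcl12-creER P6 stands beside the different feature list of that library, whose part was not tested. Fosl1, the gene of Fra-1, was at 0.295, 1.24 and 1.38 CPM over the libraries. At P25 it reached 40.8 CPM in a cluster of 70 neutrophil-like cells, against 2.52 CPM in another of 119. In Cxcl12-creER P6, with 7 UMIs in all, it was at 16.5 CPM in 31 neutrophil-like cells and 69.8 CPM in 21 unnamed cells. It is not described further.

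Set over all kept cells, 22 of 32 measured members were at least 2-fold higher in Cxcl12-GFP P6 than in Cxcl12-creER P6 and 0 lower, where 14.4% and 9.08% of all genes were. Over the same cells 29 of 34 were higher at P25 than in Cxcl12-creER P6 and 0 lower (8.27% and 7.1% of all genes), and 5 of 33 were higher at P25 than in Cxcl12-GFP P6 and 0 lower (10.5% and 15.8%). A member counts as measured here and below where it had at least 20 CPM on the higher side, and the ratio behind each count has 1 CPM added to both levels. These whole-library values mix the cell types that each gate caught, so that the classes are compared next.

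**Figure D1:**
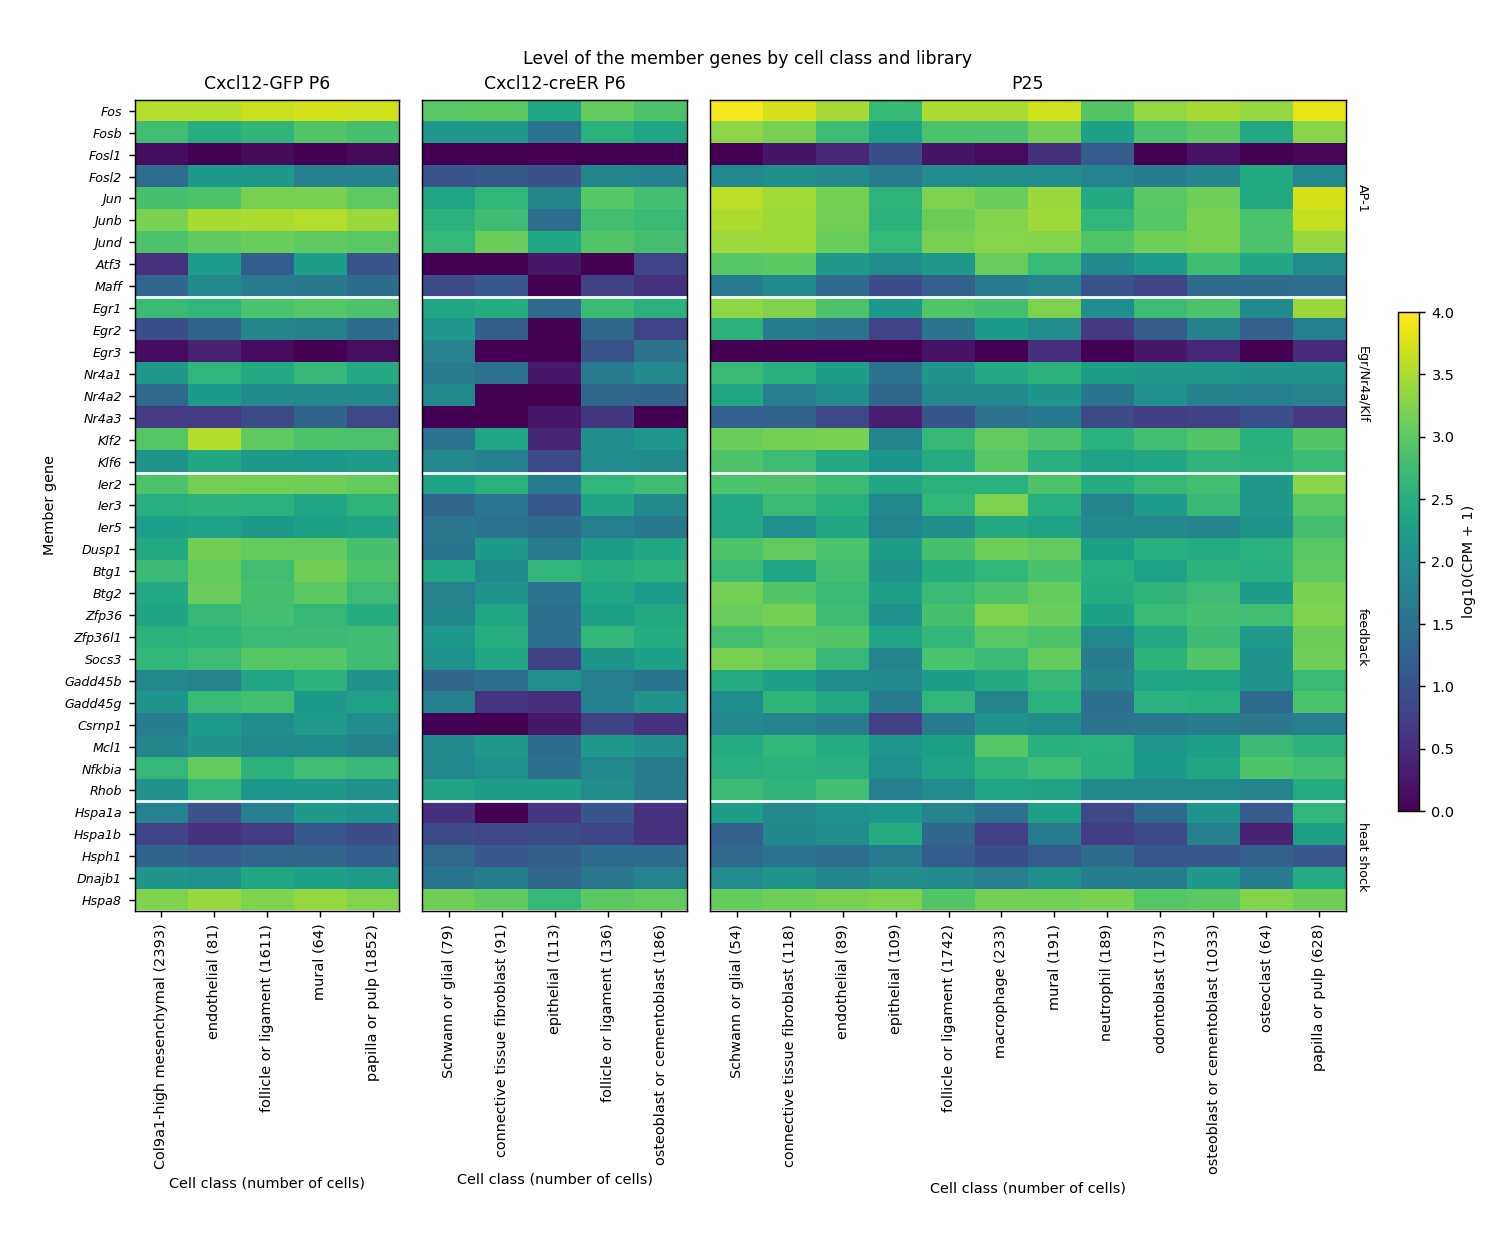
Level of each of the 37 members (log10 of CPM plus 1, colour scale from 0 to 4) in every marker-defined cell class with at least 50 cells, in columns by library with the number of cells in parentheses (class names stand for cells like the type named), and white lines between the 4 subgroups. The Cxcl12-creER P6 columns are darker than the columns of the other libraries for most rows, and Fos is among the brightest rows. At P25 Egr1 is lowest in the osteoclast, neutrophil and epithelial columns (80.1, 91.5 and 136 CPM).

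Among the P25 classes with at least 50 cells, Fos was highest in Schwann-like cells at 8615 CPM (8311 to 8926) and pulp-like cells at 7476 CPM (7408 to 7544). Connective tissue fibroblast-like cells followed at 5535 CPM and mural-like cells, the pericytes and smooth muscle of vessels, at 5053 CPM. Ligament-like cells, a class that joins dental follicle and periodontal ligament markers, stood at 3260 CPM (3240 to 3280), macrophage-like cells at 3185 CPM (3123 to 3247), osteoblast-like cells at 2957 CPM (2932 to 2982) and endothelial cells at 2895 CPM (2795 to 2997). Within this middle group the intervals of ligament-like and macrophage-like cells overlapped, as did those of osteoblast-like and endothelial cells. Osteoclast-like cells at 2289 CPM (2223 to 2357) and odontoblast-like cells at 2215 CPM (2167 to 2264) also overlapped. Neutrophil-like cells at 849 CPM and epithelial cells at 477 CPM came last. Jun ran from 5558 CPM in pulp-like cells to 274 in neutrophil-like and 265 in osteoclast-like cells, and Egr1 from 2521 CPM in pulp-like cells to 91.5 and 80.1 CPM in the same blood-derived classes. These intervals overlapped for Jun (258 to 291 and 243 to 288) and for Egr1 (82.3 to 102 and 68.1 to 93.5). A smaller class of 29 bone marrow stromal-like cells stood at 6770 CPM for Fos, 5161 CPM for Jun and 2696 CPM for Egr1.

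The P25 pulp-like cells, 628 cells led by Apod, Trf and Cldn10, carried the members at a higher level than the other named cells of that library. Of the 33 members with at least 20 CPM on the higher side, 19 were at least 2-fold higher and 1 was at least 2-fold lower, where 14.9% and 10.4% of all genes were. The median log2 ratio of the members was 1.23. Ier5, an early gene known to act on heat shock factor 1, had the highest ratio at 6.42 (6.18 to 6.67). Hspa1a at 5.59, Hspa1b at 4.74, Ier2 at 4.27, Jun at 3.95 and Egr1 at 3.35 came next. Atf3 was the member called lower, at a ratio of 0.264 (0.242 to 0.288), and Nr4a1 was at 0.768. Over the class as a whole, high Jun, Egr1 and Hsp70 thus stood beside low Atf3. Depth was lower in these cells (median 9443 UMIs) than in ligament-like cells (17039) and their mitochondrial share was higher (6.00% against 4.44%); the part of either in the result was not tested. Macrophage, endothelial and neutrophil markers were low in them, at summed levels of 39.0, 14.9 and 46.9 CPM, against 22289, 8653 and 142350 CPM in the classes those markers define. Dental epithelium markers summed to 156 CPM, against 24.1 CPM in ligament-like cells and 26444 CPM in epithelial cells, and their part was not tested.

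Schwann-like cells at P25 (54 cells) had 14 members at least 2-fold higher and 2 at least 2-fold lower among 34, with 20.1% and 14.2% of all genes called. Egr2, the Krox20 factor that drives myelination, stood out at 385 CPM (323 to 456) and a ratio of 8.88 (7.43 to 10.5) over the other named cells. The small GTPase gene Rhob followed at 4.10, and the nuclear receptor genes Nr4a2 and Nr4a1 at 3.96 and 3.45. Egr2 was also at its highest in the Schwann-like class of Cxcl12-creER P6, at 135 CPM (102 to 176) and a ratio of 12.1, so that the gene led the same class in the 2 libraries where at least 50 such cells were found. In Cxcl12-GFP P6 the smaller class of 34 Schwann-like cells held Egr2 at 36.7 CPM, below the 64.5 CPM of its ligament-like cells. In Cxcl12-creER P6 the Schwann-like cells had 3 members called higher and 8 lower among 30, with 12.7% and 10.1% of all genes. Egr2, Nr4a2 at 6.46 and Egr3 at 5.18 were the higher ones. The lower ones were 16 with each cell given equal weight and 15 with cells thinned to 1000 UMIs. The members called lower at P25 were Gadd45g at 0.264 and Hspa1b at 0.328.

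Macrophage-like cells at P25 differed in both directions within the list. Of 34 members 9 were at least 2-fold higher and 4 at least 2-fold lower, where 20.5% and 20.2% of all genes were, so the counts as such were near the background. The higher members were led by Atf3 at 1157 CPM and a ratio of 4.21 (4.06 to 4.36), Mcl1, a survival factor of the Bcl-2 family, at 886 CPM and 3.92, and Ier3, an apoptosis-modulating early gene, at 1644 CPM and 3.76. Egr2 was at 3.66, Nr4a3 at 3.44 and Klf6 at 2.70. Hspa1b at 0.0869, Gadd45g at 0.169, Hspa1a at 0.296 and Dnajb1 at 0.462 were the lower ones, so 3 of the 4 were heat shock genes. In osteoclast-like cells Fosl2, the gene of Fra-2, reached 270 CPM (247 to 293), its highest level in P25, and a ratio of 3.58 (3.27 to 3.91). Nfkbia at 2.84 and Mcl1 at 2.14 were the other two members called higher there. Of 33 members 16 were called lower (22.5% of all genes, with 18.5% higher), with Egr1 at 0.0872 and Jun at 0.148.

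Epithelial and neutrophil-like cells of P25 held the members at low levels. In epithelial cells 27 of 34 members were at least 2-fold lower and 2 at least 2-fold higher, where 19.8% and 15.7% of all genes were, with a median log2 ratio of -1.73. Socs3 was at a ratio of 0.0833, Klf2 at 0.0900 and Fos at 0.138. Heat shock genes went against this, since Hspa1b at 6.76 (6.23 to 7.32) and Hsph1 at 2.97 (2.41 to 3.62) were the members called higher. Hspa1b stood at 293 CPM (272 to 315) in these cells, the highest of any P25 class. In neutrophil-like cells 20 of 34 members were called lower and none (0) higher, where 27.3% and 17.3% of all genes were. Socs3 was at 0.0577 and Hspa1a at 0.0590 there, while Hspa8 was at 1.47, below the call. The class joins 2 clusters that differ in Hspa8, at 2036 CPM in 119 cells led by S100a8, S100a9 and Elane and at 313 CPM in 70 cells led by S100a9, S100a8 and Camp. The epithelial cells were deeper than the pulp-like cells, at a median of 21645 UMIs, and also carried neutrophil markers at a summed 2277 CPM; the part of either was not tested.

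The remaining P25 classes differed less from the rest. Connective tissue fibroblast-like cells had 6 of 34 members called higher (12.1% of all genes) and 0 lower (8.52%), and mural-like cells had 5 of 34 higher (6.94%) and 0 lower (5.98%). The first count was 3 with each cell given equal weight, and the second was 3 with clusters named by their best list alone. Odontoblast-like cells, which make dentine, had 0 of 33 called higher (4.71%) and 7 lower (13.3%), or 17 lower when each cell was given equal weight or thinned. Ligament-like cells had 0 higher (6.57%) and 3 lower (11.3%) of 33, osteoblast-like cells 1 higher (3.38%) and 2 lower (14.4%) of 33, and endothelial cells 2 higher (21%) and 2 lower (12.6%) of 34. The 3 lower in ligament-like cells were Atf3, Hspa1a and Hspa1b, at ratios of 0.317, 0.454 and 0.301, and 5 were lower at a clustering resolution of 1.5, 6 with each cell given equal weight and 8 with cells thinned. In osteoblast-like cells 1 was lower at that resolution or with clusters named by their best list alone. In osteoblast-like cells Atf3 was higher at 2.48, and Ier5 at 0.380 and Dusp1 at 0.421 were lower. Atf3 differed between the clusters of this class, from 120 CPM in 253 cells to 1775 CPM in 51 cells, against 294 CPM over the library. In endothelial cells Rhob at 5.5 and Klf2 at 2.45 were higher, and Atf3 at 0.448 and Gadd45b at 0.389 lower. Atf3 at 3.30, Rhob at 3.36 and Maff at 3.77 were among those higher in fibroblast-like cells, and Nr4a3 at 4.58 and Maff at 2.94 among those higher in mural-like cells. The mural-like class joins 147 cells with Nr4a3 at 30.7 CPM and Maff at 42.6 CPM and 44 cells with 93.1 and 154 CPM. Among the P25 classes Klf2, a factor that blood flow induces in endothelium, was highest in endothelial cells at 1556 CPM (1483 to 1631). Connective tissue fibroblast-like cells were close by at 1453 CPM (1392 to 1516), whose interval overlapped. Single clusters of other classes were as high or higher, at 1999 CPM in 51 osteoblast-like cells and 1565 CPM in 44 mural-like cells. A cluster of 204 unnamed cells stood at 1852 CPM.

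In Cxcl12-GFP P6 the classes with at least 50 cells were nearer to one another. Fos ran from 5302 CPM (5111 to 5499) in mural-like and 5176 CPM (5138 to 5214) in pulp-like cells, whose intervals overlapped, over 4779 CPM in ligament-like cells to 3646 CPM (3508 to 3788) in endothelial and 3615 CPM (3588 to 3641) in Col9a1-high mesenchymal cells. Klf2 in endothelial cells was at 3446 CPM (3312 to 3584), against 755 to 1050 CPM in the other 4 classes, a ratio of 3.83 over the other named cells. Endothelial cells had 8 members called higher and 2 lower of 32 (16.4% of all genes each way), with Atf3 at a ratio of 12.5, and with Hspa1a, at 9.65 CPM (3.88 to 19.9) and 0.135, and Gadd45b at 0.426 as the lower ones. Mural-like cells had 6 higher (7.28%) and 1 lower (7.07%) of 33, with Atf3 at 13.3, Hspa1a at 2.02 and Gadd45g, the lower one, at 0.458. Ligament-like cells had 6 higher (7.14%) and 0 lower (7.45%) of 31, led by Egr2 at 4.01, Gadd45g, a growth arrest gene, at 3.80 and Fosl2 at 3.45. The Col9a1-high cells, 2393 mesenchymal cells named for their collagen genes, had 0 higher (2.54%) and 9 lower (5.31%) of 32, with Atf3 at 0.126, Egr2 at 0.177 and Fosl2 at 0.258. Pulp-like cells had 1 called higher (2.22%) and 0 lower (3.3%) of 31, and that member was Hspa1a at 112 CPM and a ratio of 2.04. With cells thinned to 1000 UMIs, clustering at resolution 0.5 or clusters named by their best list alone, 0 were called. The pulp-like cells of P25, where 14.9% of all genes were called higher, were set against other types, with no Col9a1-high class among them. The pulp-like counts of these libraries thus have unlike comparators.

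Of the Cxcl12-creER P6 classes with at least 50 cells, ligament-like cells had the highest Fos at 1102 CPM (1054 to 1152). Connective tissue fibroblast-like cells at 965 CPM (861 to 1077), whose interval overlapped, and Schwann-like cells at 945 CPM (853 to 1044) came next. Osteoblast-like cells stood at 765 CPM and epithelial cells at 237 CPM. Smaller classes reached 2517 CPM in 43 muscle-like cells and 2750 CPM in 20 Col9a1-high cells. Ligament-like cells had 9 of 29 members called higher (18.3% of all genes) and 0 lower (5.95%), led by Ier3 at 7.38, Fosb at 2.93 and Jun at 2.84. This class had a median of 10827 UMIs per cell against 1254 to 3723 in the other 4 with at least 50 cells, and the part of depth was not tested. With each cell given equal weight 2 members were called higher in it, and 5 with cells thinned to 1000 UMIs. Osteoblast-like cells had 6 higher (6.26%) and 2 lower (8.65%) of 29, with Gadd45g at 3.42 and Egr2 at 0.226, and 10 were called higher with cells thinned to 1000 UMIs and 0 with clusters named by their best list alone. Connective tissue fibroblast-like cells had 3 higher (15.4%) and 6 lower (10.3%) of 29, with Klf2 at 3.29 and Gadd45g at 0.0749. This class joins 48 cells with Klf2 at 261 CPM and 43 cells with Klf2 at 0 CPM. The epithelial cells, with Amelx at 460522 CPM over the class, had 25 of 30 called lower and 1 higher, where 63.5% and 5.32% of all genes were. With each cell given equal weight 16 were lower. The class joins 2 kinds of cell, 88 led by the enamel genes Amelx, Ambn and Enam and 25 led by Igfbp2 and the keratin genes Krt5 and Krt15, at medians of 4867 and 1235 UMIs. The members stood apart between them, with Fos at 174 and 1587 CPM, Jun at 39.3 and 628 CPM, Dusp1 at 9.39 and 794 CPM and Zfp36 at 5.98 and 517 CPM. With 1 gene holding that share of the UMIs, every other gene's CPM in this class is lowered by the scale itself. Gadd45b, at 101 CPM and a ratio of 2.35, was the member called higher.

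**Figure D2:**
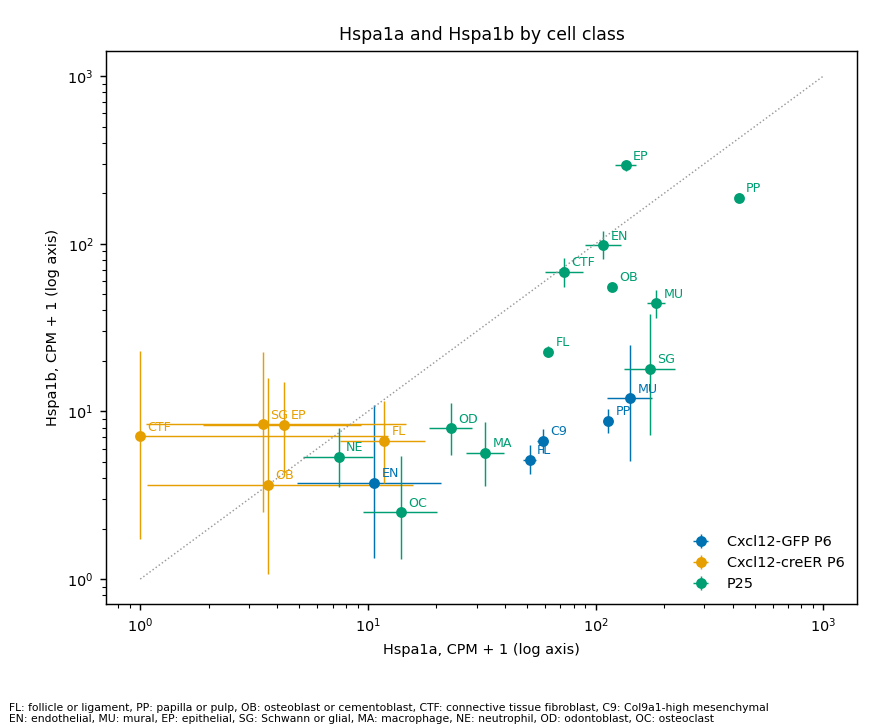
Hspa1b against Hspa1a, each as CPM plus 1 on a log axis, with 1 point per cell class of at least 50 cells, coloured by library. Bars show the 95% counting interval and a dotted line shows equal levels. All 5 Cxcl12-GFP P6 classes lie below the line and at Hspa1b levels of 11.0 CPM or less, while P25 reaches 188 CPM in pulp-like cells (PP, below the line) and 293 CPM in epithelial cells (EP, above it).

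The paired Hsp70 genes did not keep 1 ratio over the libraries, nor over the classes of P25. Both count 3′ ends, so that their CPM can be set side by side without a length correction. Reads from a stretch that both transcripts hold cannot be assigned, and the part of this, of the library and of the chemistry was not tested. In Cxcl12-GFP P6, Hspa1a and Hspa1b stood at 112 and 7.79 CPM in pulp-like cells, 50.3 and 4.15 CPM in ligament-like cells and 141 and 11.0 CPM in mural-like cells. At P25 they stood at 424 and 188 CPM in pulp-like cells, 117 and 54.5 CPM in osteoblast-like cells, and 107 and 97.3 CPM in endothelial cells. In P25 epithelial cells Hspa1b was the higher of the pair, with 135 CPM (121 to 150) for Hspa1a and 293 CPM for Hspa1b, although the promoter windows printed above differ at few bases. In Cxcl12-creER P6 both were at or below 10.8 CPM in each of the 5 classes with at least 50 cells, although the 25 keratin-led epithelial cells held 73.8 and 166 CPM. Hspa1a had 0 UMIs in connective tissue fibroblast-like cells, where 3 counts would be 9.16 CPM.

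The 2 day 6 libraries shared 1 class with at least 50 cells in both, the ligament-like cells, with 1611 and 136 cells. Follicle-type clusters held most of the class in both, with 855 and 459 cells in Cxcl12-GFP P6 against 72, 32 and 22 in the other library. The members were higher in Cxcl12-GFP P6. Of the 32 measured, 20 were at least 2-fold higher and 0 at least 2-fold lower, while 8.12% and 16.6% of all 7196 genes were. Dental epithelium markers moved with the comparison, at a summed 94.3 CPM in Cxcl12-GFP P6 (0 of 10 markers at 0) and 703 CPM in Cxcl12-creER P6 (1 of 10 at 0), and their part was not tested. The median log2 ratio of the members was 1.66, against 0.05 over all genes.

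Of the AP-1 genes 4 of 7 were called. Fos was at 4779 and 1102 CPM, a ratio of 4.34 (4.14 to 4.54), and Junb at 3248 and 648 CPM, a ratio of 5.02 (4.73 to 5.32). Maff, a small Maf protein gene, was at 44.6 and 5.12 CPM, a ratio of 8.71 (4.56 to 19.1). Fosl2 had a ratio of 2.21, and below the call were Jun at 1.67, Jund at 1.5 and Fosb at 1.13. AP-1 genes thus ran from nearly level to a ratio of 8.71 within the same cells. Of the other early factor genes 4 of 6 were called, with Klf2 at 1050 and 91.0 CPM, a ratio of 11.5 (9.87 to 13.6), Nr4a1 at 6.26, Nr4a2 at 3.81 and Egr2 at 3.15. Klf6 at 1.73 and Egr1 at 1.34 (1.26 to 1.44) were below it.

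Of the feedback genes 10 of 15 were called. Csrnp1, an early nuclear protein gene, was at 94.1 and 5.12 CPM, a ratio of 18.4 (9.65 to 40.2). Gadd45g had a ratio of 10.8, Socs3 of 7.07, Dusp1 of 6.43, Nfkbia of 5.28 and Gadd45b of 4.47. Zfp36 at 3.48, Ier2 at 3.28, Btg2, an antiproliferative factor, at 2.87 and Ier5 at 2.80 completed the called genes. The survival gene Mcl1 ran against them at 71.6 and 143 CPM, a ratio of 0.501 (0.437 to 0.577), and Zfp36l1, a relative of Zfp36, was near level at 1.18. Csrnp1 overlaps Cx3cr1 on the same strand, so that reads could be shared between them. Of the heat shock genes 2 of 4 were called. Dnajb1 was at 248 and 37.0 CPM, a ratio of 6.69 (5.24 to 8.69), and Hspa1a at 50.3 and 10.8 CPM, a ratio of 4.66 (2.96 to 7.77), while Hspa8 at 1.73 and Hsph1 at 0.805 were not.

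Genes outside the list give the scale of these values. Of 23 measured further early response genes 17 were at least 2-fold higher in Cxcl12-GFP P6 and 0 lower, led by Irf1 at 8.49 and Bhlhe40 at 7.40, with Ctgf at 1.34 and Kdm6b at 1.26 lowest. Of 6 NF-kB targets 4 were higher, with the chemokine genes Cxcl1 at 45.2 (27.4 to 80.8) and Cxcl2 at 8.25 (3.76 to 22.6), and Nfkb1 at 0.669 and Relb at 1.0. Other chaperones were split, with 2 of 15 higher (Cryab at 7.49, Dnajb4 at 2.29) and 2 lower (Hspb1 at 0.308, Hsp90ab1 at 0.468). None (0) of the 10 kinases and factors that act upstream was called, from Elk4 at 0.591 to Map2k1 at 2.03, whose log2 ratio under the pseudocount was 0.99. Of 10 unfolded protein response genes 3 were higher, led by Sdf2l1 at 2.61 and Dnajb9 at 2.49. Housekeeping genes were not level either, with 3 of 13 higher (B2m at 2.54 highest) and 2 lower (Pgk1 at 0.233, Ywhaz at 0.418). Depth, feature list and gate all differ between these libraries and their part was not tested.

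**Figure D3:**
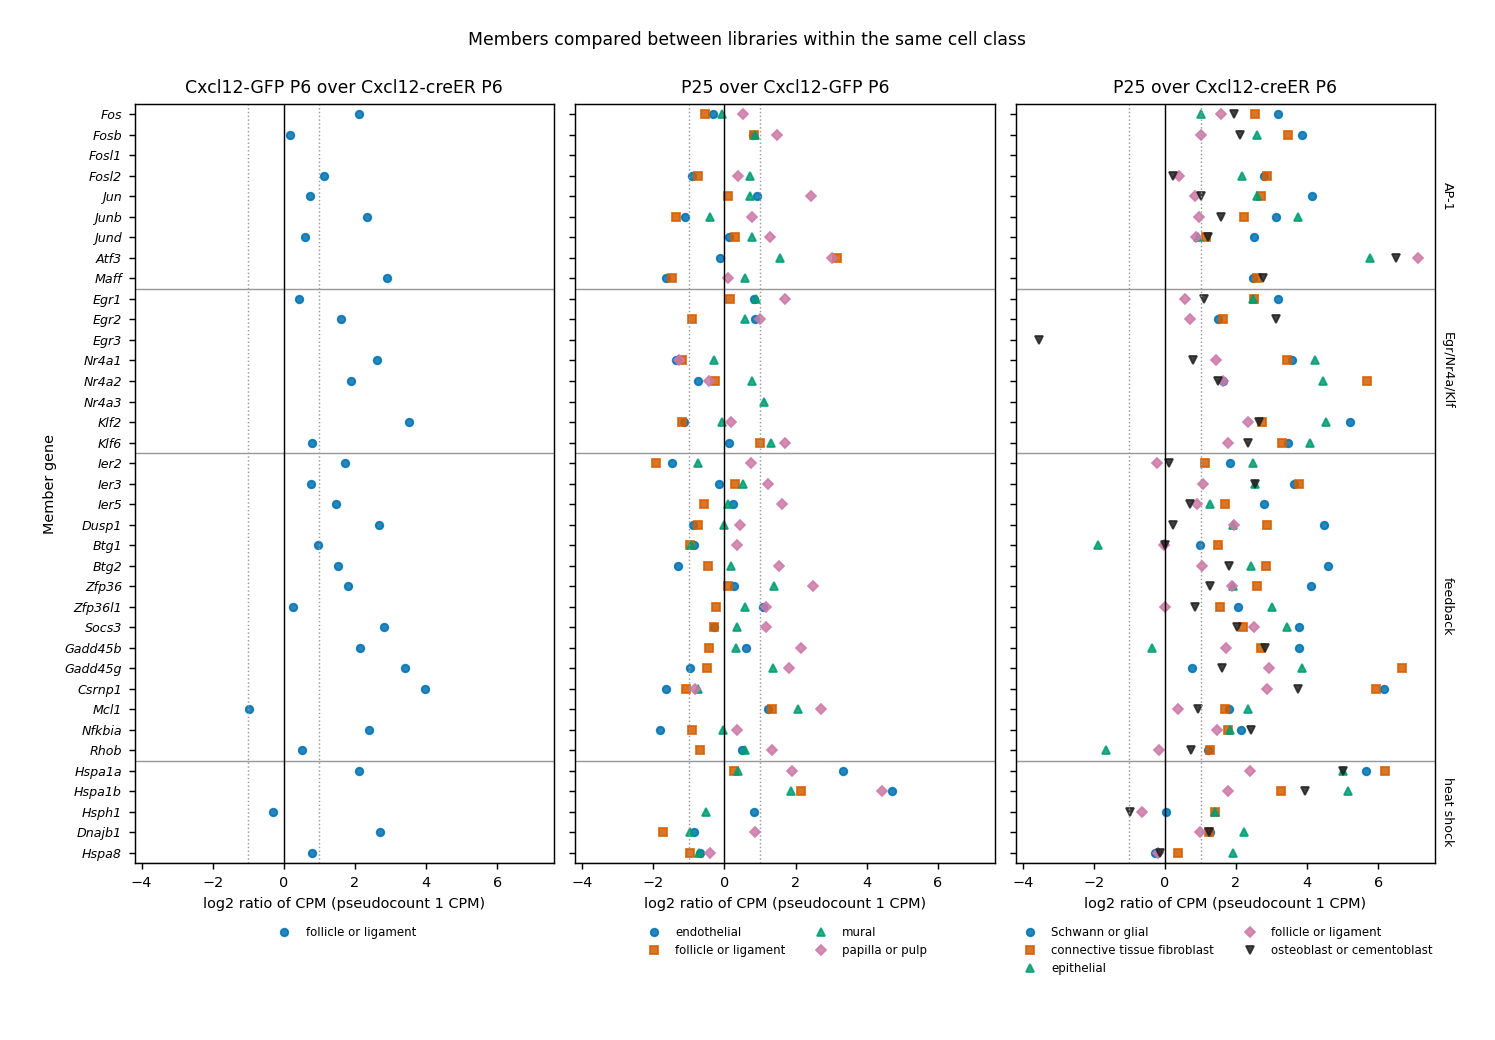
Log2 ratio of CPM (pseudocount 1 CPM) of each measured member between libraries within 1 cell class, in panels by comparison, with symbols for classes, a solid line at no difference and dotted lines at 2-fold. In the left panel 20 of 32 points lie at or beyond the upper dotted line, in the middle panel the papilla or pulp points lie at a median of 1.18, and in the right panel the connective tissue fibroblast points lie at a median of 2.58. Values against a class with 0 UMIs rest on the pseudocount, and points beyond the axis end are not drawn.

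P25 and Cxcl12-GFP P6 shared 4 classes. This comparison shares its P25 library with the next and its day 6 library with the one before, so that the 3 are not independent. The pulp-like cells differed most. Of 33 measured members 18 were at least 2-fold higher at P25 and 1 at least 2-fold lower, where 11.4% and 10.3% of all 6987 genes were, and the median log2 ratio was 1.18 against -0.16 over all genes. The 1852 day 6 cells were of 3 clusters led by Smoc2, by Cldn10 and by Irx5 with Cldn10, and the 628 P25 cells were 1 cluster led by Apod, so that the kinds of pulp-like cell also differ between the ages.

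Jun had the larger difference of the abundant AP-1 genes, at 5558 CPM at P25 and 1018 at day 6, a ratio of 5.46 (5.35 to 5.57). Fos, in contrast, was at 7476 and 5176 CPM, a ratio of 1.44 (1.43 to 1.46), below the call. Fosb was at 1926 and 694 CPM, a ratio of 2.77, and Jund at 2334 and 956 CPM, a ratio of 2.44. Atf3 reached the highest AP-1 ratio at 8.93 (7.39 to 10.9) from low levels, 87.7 and 9.81 CPM. Junb at 1.72, Fosl2 at 1.31 and Maff at 1.07 were not called, so that 4 of 8 AP-1 genes were. Of the Egr, Nr4a and Klf genes, Klf6 was at 525 and 159 CPM, a ratio of 3.30 (3.13 to 3.49), and Egr1 at 2521 and 773 CPM, a ratio of 3.26 (3.18 to 3.34). Nr4a1, an orphan nuclear receptor, went the other way at 116 and 280 CPM, a ratio of 0.414 (0.381 to 0.448), the 1 member called lower. Egr2 at 2.03, with a log2 ratio of 0.99 under the pseudocount, Klf2 at 1.13 and Nr4a2 at 0.738 were not called.

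Feedback genes had the largest share called, 10 of 15. Mcl1 was at 379 and 57.2 CPM, a ratio of 6.63 (6.11 to 7.19), Zfp36 at 1682 and 301 CPM, a ratio of 5.58 (5.39 to 5.79), and Gadd45b at 516 and 115 CPM, a ratio of 4.50. Gadd45g at 3.54, Ier5 at 3.06, Btg2 at 2.87, Rhob at 2.55, Ier3 at 2.34, Zfp36l1 at 2.26 and Socs3 at 2.26 were also called. Ier2 at 1.68, Dusp1 at 1.36, Nfkbia at 1.29, Btg1 at 1.27 and Csrnp1 at 0.557 were not. Both inducible Hsp70 genes were called, Hspa1b at 188 and 7.79 CPM with a ratio of 24.1 (19.8 to 29.6) and Hspa1a at 424 and 112 CPM with a ratio of 3.77 (3.54 to 4.02). Their partner Dnajb1 was at 1.81 and the constitutive Hspa8 at 0.753.

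Beside the members, 11 of 28 further early response genes were higher and 1 lower in these pulp-like cells, with Ctgf at 16.0 and Ptgs2 at 12.2 highest and Klf10 at 0.142 and Kdm6b at 0.567 lowest. NF-kB targets had 2 of 4 higher, from Nfkbiz at 2.74 and Nfkb1 at 2.12 to Cxcl1 at 0.901 and Relb at 0.841. Other chaperones had 0 of 15 higher and 2 lower (Fkbp4 at 0.452 and Stip1 at 0.474), with Hsp90ab1 at 1.48 and Hsp90aa1 at 1.34 highest. The upstream kinases and factors had 0 of 10 called, from Creb1 at 1.51 and Elk4 at 1.42 to Hsf2 at 0.697 and Hsf1, the heat shock factor, at 0.509. Unfolded protein response genes had 0 of 10 higher and 2 lower (Creld2 at 0.429 and Sdf2l1 at 0.461, with Atf4 at 1.83 and Hsp90b1 at 1.37 highest), and housekeeping genes 0 of 13 higher and 3 lower, from Pgk1 at 0.316 and Hprt at 0.414 to Gapdh at 1.36 and Ywhaz at 1.77. The mitochondrial share was higher in the P25 pulp-like cells (6.00% against 3.34%), and its part was not tested.

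Ligament-like cells numbered 1742 at P25 and 1611 at day 6. Of 33 measured members 3 were at least 2-fold higher and 7 at least 2-fold lower, where 8.8% and 16.9% of all genes were, so that the counts were close to the background. The median log2 ratio was -0.49 against -0.36 over all genes. Fos was at 3260 and 4779 CPM, a ratio of 0.682 (0.676 to 0.689), and Jun at 1614 and 1500 CPM, a ratio of 1.08. The P25 cells came from clusters led by ligament markers such as Aspn, Tnn and Postn and the day 6 cells mainly from follicle-type clusters. With CPM over the genes outside the mitochondrial, ribosomal, member and most abundant genes, or with log2 ratios centred on the median of all genes, the split was 5 higher and 4 lower.

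The AP-1 genes of the ligament-like cells ran from Atf3 at 137 and 14.5 CPM, a ratio of 9.48 (8.32 to 10.9), over Fosb at 1.78 and Jund at 1.22 to Fosl2 at 0.592, Junb at 1264 and 3248 CPM with 0.389 (0.384 to 0.394), and Maff at 0.349. Klf6 at 1.99, Egr1 at 1.11 and Nr4a2 at 0.836 were the highest of the next subgroup, and Egr2 at 0.529, Klf2 at 461 and 1050 CPM with 0.439, and Nr4a1 at 0.437 the lowest. Mcl1, at 183 and 71.6 CPM and 2.56 (2.40 to 2.73), was the feedback gene called higher, followed by Ier3 at 1.23 and Zfp36 at 1.07. Ier2 was lowest at 365 and 1396 CPM, a ratio of 0.261 (0.255 to 0.267), with Csrnp1 at 0.468 and Btg1 at 0.507. The heat shock genes split, with Hspa1b at 21.7 and 4.15 CPM, a ratio of 5.23 (4.07 to 6.81), and Hspa1a at 1.21 above level, and Hspa8 at 0.506 and Dnajb1 at 74.1 and 248 CPM with 0.299 (0.284 to 0.315) below it. Atf3, Mcl1 and Hspa1b were thus the members called higher in the ligament-like cells, and each was called higher in the pulp-like cells too.

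In endothelial cells, 89 at P25 and 81 at day 6, 4 of 34 members were called higher and 8 lower, where 16.5% and 11.1% of all genes were. Hspa1b was at 97.3 and 2.76 CPM, a ratio of 35.3 (9.53 to 295) that rests on 2 counts at day 6, and Hspa1a at 107 and 9.65 CPM, a ratio of 11.1 (5.23 to 28.2). Hspa8 at 0.627 and Dnajb1 at 0.547 were lower but not called. Mcl1 at 2.34 (1.85 to 3.01) and Zfp36l1 at 2.13 (1.87 to 2.44) were the other two called higher, with Gadd45b at 1.52 next. Klf2 was at 1556 and 3446 CPM, a ratio of 0.451 (0.424 to 0.480), and Nr4a1 at 166 and 433 CPM, a ratio of 0.384. Junb at 0.467, Btg2 at 0.406, Ier2 at 0.357, Csrnp1 at 0.315, Maff at 0.312 and Nfkbia at 0.285 (0.251 to 0.323) completed the lower ones. Jun at 1.87, Egr1 at 1.78, Fosb at 1.74, Jund at 1.10, Klf6 at 1.09, Fos at 0.794, Nr4a2 at 0.593 and Fosl2 at 0.532 were not called.

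Mural-like cells, 191 at P25 and 64 at day 6, had 7 of 35 members called higher and 0 lower, where 13.8% and 16.3% of all genes were, and a median log2 ratio of 0.51 against -0.19 over all genes. Mcl1 was at 344 and 80.6 CPM, a ratio of 4.27 (3.15 to 5.92), Zfp36 at 2.61 and Gadd45g at 2.59. Atf3 was at 499 and 168 CPM, a ratio of 2.96 (2.39 to 3.70), Klf6 at 2.48, and Nr4a3, at 41.0 and 18.3 CPM, at 2.24 (1.17 to 4.81). Hspa1b at 43.1 and 11.0 CPM had a ratio of 3.92 (1.74 to 10.9). The P25 class joins 2 clusters, with Atf3 at 235 CPM in 147 cells and 1840 CPM in 44. With the larger cluster alone 5 members were called higher, and the log2 ratios of Atf3 at 0.47 and Nr4a3 at 0.72 were below the call, while Csrnp1 was at -1.16. Below the call were Egr1 at 1.85, Fosb at 1.82, Jund at 1.71, Jun at 1.63, Maff at 1.51, Egr2 at 1.5, Hspa1a at 1.30, Fos and Klf2 each at 0.953, Nr4a1 at 0.812, Junb at 0.752, Hspa8 at 0.613, Csrnp1 at 0.595, Ier2 at 0.592, Btg1 at 0.520 and Dnajb1 at 0.505.

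P25 and Cxcl12-creER P6 shared 5 classes, and more members were called higher than lower at P25 in each. The feature list, the depth and the age differ together between these libraries and cannot be told apart. Dental epithelium markers summed to 703 to 1751 CPM in the 4 classes of Cxcl12-creER P6 other than epithelial cells, against 12.3 to 79.3 CPM in those of P25 (1 to 6 of 10 markers at 0), and their part was not tested. Schwann-like cells, 54 and 79, had 29 of 34 members called higher and 1 lower, where 20.4% and 16.6% of all genes were, with a median log2 ratio of 2.96 against 0.03. Fos was at 8615 and 945 CPM, a ratio of 9.12 (8.20 to 10.2), and Jun at 3979 and 224 CPM, a ratio of 17.8 (14.4 to 22.2). Atf3, at 924 CPM, had 0 UMIs at day 6 and was at least 125-fold higher, taking 3 counts over the class as the floor. Fosb at 14.6, Junb at 8.80 and Jund at 5.73 lay between. Klf2 was at 1210 and 32.0 CPM, a ratio of 37.8 (21.9 to 71.6), Nr4a1 at 12.1, Klf6 at 11.2, Egr1 at 9.17, Nr4a2 at 3.11 and Egr2 at 2.85. Btg2 at 24.2, Dusp1 at 23.0 and Zfp36 at 17.6 led the feedback genes, and Mcl1 at 3.49, Rhob at 2.30 and Btg1 at 1.97 were the lowest of them. Hspa8 stayed close to level at 0.826 (0.724 to 0.941), while Hspa1a had a ratio of 70.3 (12.1 to 2820) on 1 count at day 6. The member called lower was Egr3, with 0 UMIs at P25 and 59.0 CPM at day 6, beside the feature list named above.

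Connective tissue fibroblast-like cells, 118 and 91, had 33 of 34 members called higher and 0 lower, where 11.4% and 10.9% of all genes were, with a median log2 ratio of 2.58 against -0.09. Fos was at 5535 and 965 CPM, a ratio of 5.74 (5.13 to 6.44), Fosb at 11.0, Fosl2 at 7.89, Jun at 6.49, Junb at 4.71 and Jund at 2.23. Of the members at 0 UMIs at day 6, Atf3 was at least 108-fold higher, Hspa1a at least 7.84-fold, Csrnp1 at least 6.57-fold and Nr4a2 at least 5.45-fold. Nr4a1 at 11.2, Klf6 at 9.95, Klf2 at 6.61, Egr1 at 5.64 and Egr2 at 3.22 followed. Gadd45g, on 1 count at day 6, had a ratio of 135 (24.1 to 5332), and Ier3 was at 14.1, with Btg1 at 2.84, Rhob at 2.40 and Ier2 at 2.18 lowest. Hspa1b at 11.0 (2.96 to 91.9) rested on 2 counts, Hsph1 was at 2.80 and Dnajb1 at 2.38 (a log2 ratio of -0.22, the other way, with cells thinned to 1000 UMIs), and Hspa8 at 1.28 (1.14 to 1.44) was the 1 measured member not called.

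Ligament-like cells, 1742 and 136, had 18 of 33 called higher and 0 lower, where 6.53% and 16.7% of all genes were, with a median log2 ratio of 1.04 against -0.34. Fos was at 3260 and 1102 CPM, a ratio of 2.96 (2.83 to 3.1), Fosb at 2.01, Jund at 1.84, Jun at 1.80 and Fosl2 at 1.31, and Atf3, at 0 UMIs at day 6, was at least 80.4-fold higher. Klf2 was at 461 and 91.0 CPM, a ratio of 5.06 (4.33 to 5.95), with Klf6 at 3.44, Nr4a2 at 3.18, Nr4a1 at 2.73, Egr2 at 1.67 and Egr1 at 1.49. Csrnp1 at 8.60, Gadd45g at 7.66 and Socs3 at 5.74 led the feedback genes, and Btg1 at 0.985, Rhob at 0.882 and Ier2 at 0.855 (0.794 to 0.922) were lowest. Hspa1a was at 5.63, Hspa1b at 3.82, Dnajb1 at 2.0, Hspa8 at 0.878 and Hsph1 at 0.621. Both day 6 libraries had follicle-type cells in this class, and it was the deepest class of Cxcl12-creER P6.

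Osteoblast-like cells, 1033 and 186, had 23 of 35 called higher and 1 lower, where 7.23% and 20.7% of all genes were, with a median log2 ratio of 1.49 against -0.36. Fos was at 2957 and 765 CPM, a ratio of 3.87 (3.44 to 4.35), Fosb at 4.34, Jund at 2.34, Jun at 2.02 and Fosl2 at 1.17. Atf3 was at 572 and 5.31 CPM, a ratio of 108 (29.8 to 889) on 2 counts at day 6, and Maff at 8.94 (1.60 to 354) on 1. Egr2 at 10.2 (2.82 to 84.6, 2 counts), Klf2 at 6.35 and Klf6 at 5.14 were the highest of their subgroup, with Nr4a2 at 2.91, Egr1 at 2.13 and Nr4a1 at 1.73 below. Csrnp1 at 18.0 (3.21 to 710) on 1 count, Gadd45b at 7.19 and Ier3 at 5.86 were the highest feedback genes, and Dusp1 at 1.18, Ier2 at 1.09 and Btg1 at 1.01 the lowest. Hspa1a at 44.1 (7.91 to 1743) and Hspa1b at 20.5 (3.67 to 811) each rested on 1 count, Dnajb1 was at 2.39, Hspa8 at 0.915 and Hsph1 at 0.486. The member called lower was Egr3, at 1.83 and 31.9 CPM.

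The epithelial cells of the 2 libraries are of different kinds. Those of P25 were led by keratin genes, with Krt14 at 17650 CPM and Amelx at 24.4 CPM, while those of Cxcl12-creER P6 were the 88 enamel-gene and 25 keratin-led cells described above. Here 27 of 31 members were called higher and 2 lower, but 57.8% of all genes were called higher too (8.34% lower), and the all-gene median was 1.23 against 2.47 for the members. Centred on that median, 18 members were higher and 3 lower. Fos, at 477 and 237 CPM and a ratio of 2.02 (1.77 to 2.30), was lower at P25 when each cell had equal weight, at a log2 ratio of -0.87, and Dusp1 was too at -0.49. Against the 88 enamel-gene cells alone 27 of 31 members were called higher, with a median log2 ratio of 3.31 and Fos at 1.45, while the 1587 CPM of Fos in the 25 keratin-led cells lay above the P25 level. Atf3 at 119 (21.2 to 4725, 1 count), Junb at 13.7, Fosb at 6.20, Jun at 6.10, Fosl2 at 4.86 and Jund at 1.90 were the other AP-1 values. Klf2 at 36.8 (10.0 to 306, 2 counts), Nr4a2 at least 8.50-fold, Nr4a1 at 40.2 (7.02 to 1607, 1 count), Klf6 at 19.4 and Egr1 at 5.75 were the Egr, Nr4a and Klf values. Gadd45g at 19.8 (6.61 to 97.2, 3 counts), Socs3 at 12.8 and Zfp36l1 at 8.34 were the highest feedback genes, with Gadd45b at 0.779, Rhob at 0.310 and Btg1 at 0.268 the lowest. Hspa1a was at 135 and 3.26 CPM, a ratio of 41.3 (16.0 to 153), Hspa1b at 39.9, Dnajb1 at 4.86, Hspa8 at 3.76 and Hsph1 at 2.76, which turned to a log2 ratio of -0.053 with cells thinned to 1000 UMIs.

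Cells were then compared at equal depth, each thinned to 1000 UMIs, with shallower cells left out. P25 pulp-like cells held a median of 45 member UMIs (18 to 67 between the percentiles 10 and 90 of cells), the highest median of the 22 classes. Schwann-like cells of P25 held 36 (3 to 99.8), a wider range within 53 cells. Ligament-like cells of P25 held 12 (3 to 39), against 24 (5 to 42) for those of Cxcl12-GFP P6 and 7 for those of Cxcl12-creER P6. Pulp-like cells of Cxcl12-GFP P6 held 21 (9 to 35), so that their percentile 90 lay below the P25 median. The classes of Cxcl12-creER P6 ran from 2 in epithelial cells to 8 in osteoblast-like and connective tissue fibroblast-like cells at this same depth, each below the median of the same class at P25. In it 24.0% of epithelial and 13.7% of Schwann-like cells held no member UMI at 1000 UMIs.

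**Figure D4:**
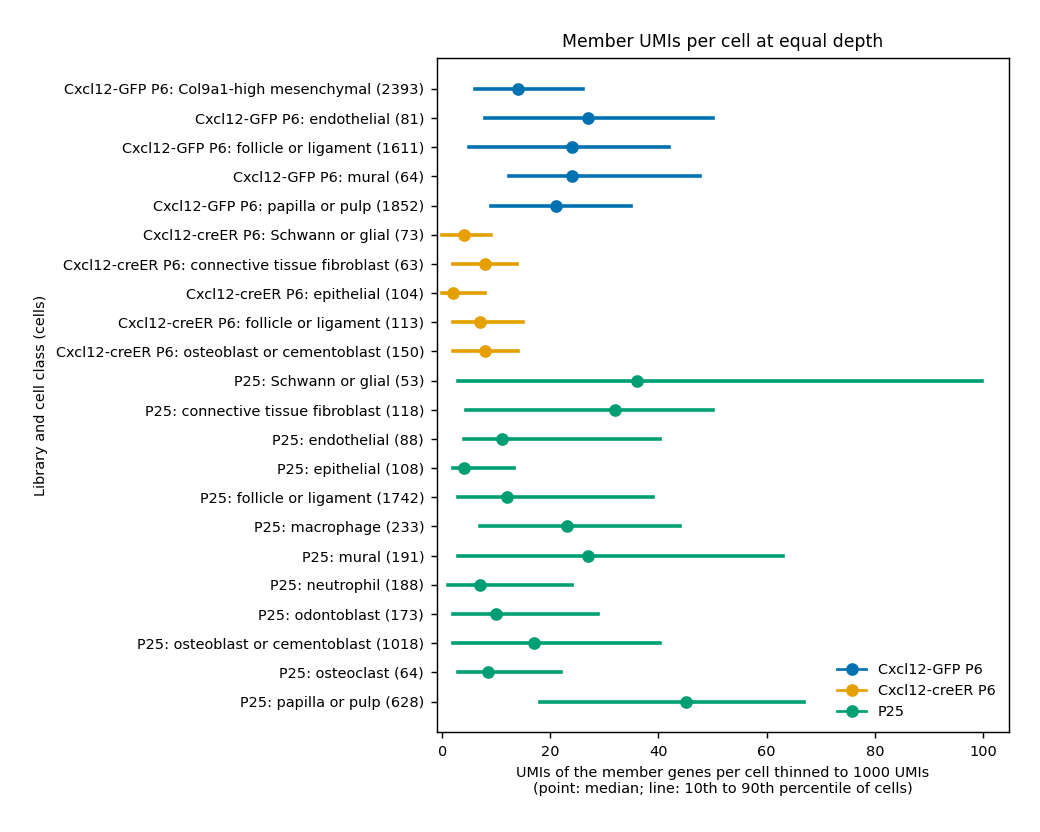
UMIs of the 37 members per cell after thinning each cell to 1000 UMIs, with 1 line per cell class (cells in parentheses), a point at the median and the line between percentiles 10 and 90 of cells, coloured by library. The Cxcl12-creER P6 medians lie between 2 and 8, the Cxcl12-GFP P6 medians between 14 and 27 and the P25 medians between 4 (epithelial) and 45 (papilla or pulp).

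At 1000 UMIs the 10% of P25 pulp-like cells with the most Jun held 23.2% of the Jun UMIs of the class, and the 10% with the most Fos held 22.1% of the Fos UMIs. In P25 ligament-like cells these shares were 41.6% and 34.7%, and the share of Hspa1a UMIs in the top 10% of P25 pulp-like cells was 60.9%. These shares rise as counts fall, and Hspa1a had 233 UMIs over 628 cells, so that they do not compare the evenness of genes or classes.

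Fos and its companions were found together in the same cells. In P25 pulp-like cells with a Fos UMI 97.3% also had Jun (95.7% to 98.5%), against 41.4% (23.5% to 61.1%) of the 29 cells without one. In P25 ligament-like cells the shares were 68.5% and 25.3%, and in Cxcl12-GFP P6 ligament-like cells 67.4% and 22.6%. Over the 17 classes with at least 20 cells on both sides, Jun was more often found in cells with Fos in 17, with intervals apart in 11, Egr1 in 17 (10 apart), Junb in 17 (11 apart) and Zfp36 in 16 (12 apart). Hspa8 was more often found with Fos in 15 (7 apart). Hspa1a and its co-chaperone gene Dnajb1 could be compared in 7 classes, and Dnajb1 was more often found in cells with Hspa1a in 5, with intervals apart in 1. Hspa1b was more often found with Hspa1a in 4 of 7, with intervals apart in 2. In P25 pulp-like cells 18.2% of cells with Hspa1a and 15.8% of cells without it had Hspa1b. In P25 ligament-like cells the shares were 13.6% (6.98% to 23.0%) and 1.63% (1.07% to 2.36%).

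Summed over subgroups, the AP-1 genes followed the feedback genes across cells and the heat shock genes less so. Over the 22 classes the correlation across cells at 1000 UMIs (Pearson r of log values, given as a description since cells of a library share their preparation) had a median of 0.62 (0.40 to 0.87) for AP-1 with feedback genes. For AP-1 with Egr, Nr4a and Klf genes it was 0.55 (0.19 to 0.87), for Egr, Nr4a and Klf with feedback genes 0.51 (0.12 to 0.77), and for AP-1 with heat shock genes 0.21 (-0.06 to 0.47). Without the constitutive Hspa8 the last was 0.17 (-0.01 to 0.40). Sparse sums lower a correlation by themselves. Over whole libraries the heat shock genes held fewer UMIs than the AP-1 or feedback genes. Against the Egr, Nr4a and Klf genes they held, with Hspa8 included, 0.205% to 0.207% in Cxcl12-GFP P6, 0.105% to 0.0545% in Cxcl12-creER P6 and 0.139% to 0.241% at P25. Hspa8 held most of this, at 1788, 982 and 1112 CPM in the same order. Dnajb1, Hspa1a, Hspa1b and Hsph1 were each at 173 CPM or less. The sum without Hspa8, which gave the median of 0.17, is therefore sparser than the Egr, Nr4a and Klf sum. The part of sparseness was not tested.

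**Figure D5:**
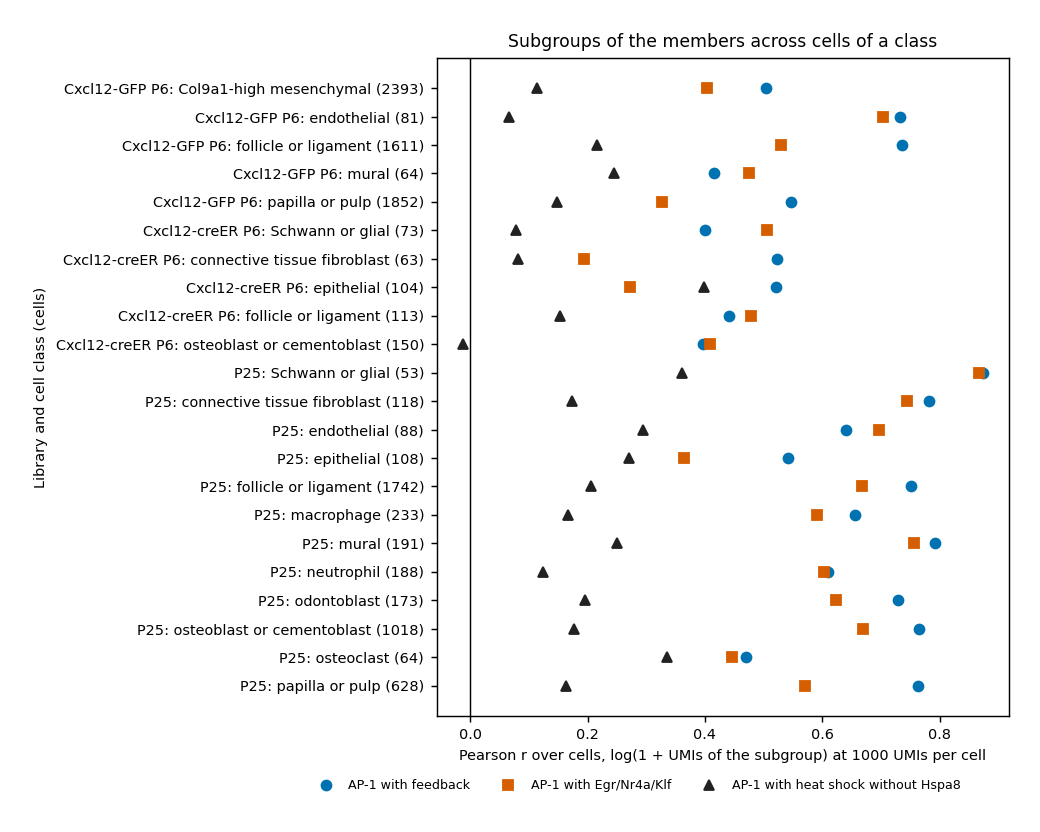
Pearson r across the cells of each class between the AP-1 sum and the feedback sum (circles), the Egr, Nr4a and Klf sum (squares) and the heat shock sum without Hspa8 (triangles), on log(1 + UMIs) with 1000 UMIs per cell and the number of cells in parentheses. Circles lie between 0.40 and 0.87, and triangles between -0.01 and 0.40, left of the circle in every class.

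Member levels also differed with depth and mitochondrial share inside single classes, each split into 4 groups of 25% of its cells. In P25 pulp-like cells Fos was at 9532 CPM in the group with the fewest UMIs and 6450 CPM in that with the most, and at 9802 and 5307 CPM in the groups with the lowest and highest mitochondrial share. Jun was at 7400 and 4812 CPM by UMIs and at 6927 and 4214 CPM by mitochondrial share. The pulp-like class of Cxcl12-GFP P6, not split, stood at 1018 CPM for Jun. The part of depth or mitochondrial share in the Jun difference between these libraries was not tested. In P25 osteoblast-like cells Hspa1a was at 516 CPM in the group with the fewest UMIs and 24.9 CPM in that with the most, and Hspa1b at 316 and 7.65 CPM, so that both inducible Hsp70 genes stood highest beside low depth there. In P25 pulp-like cells Hspa1a went the other way, at 390 and 482 CPM. The osteoblast-like class joins 5 clusters that differ in both depth and Hspa1a, so that its split also mixes kinds of cell. Hspa1a was at 45.7, 319, 88.5, 57.9 and 6.39 CPM in them, at medians of 25779, 15089, 10633, 1752 and 19226 UMIs. The part of the clusters was not tested. In ligament-like cells Fos was at 3928 and 2861 CPM by UMIs at P25, 5203 and 4196 CPM in Cxcl12-GFP P6, and 902 and 1121 CPM in Cxcl12-creER P6. The part of depth in the differences between the libraries was not tested.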

How the data were processed

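Cells of mandibular molars were sorted and run on 10X 3′ v3 droplets, about 10000 cells loaded per library, per the labels' protocols (the chemistry of each library was not tested). The authors deposited raw UMI counts, 1 matrix per library. The submitters' processing notes list Cell Ranger, Seurat and the build mm10. Per the file headers, the P25 matrix was written by Cell Ranger 3.1.0 and the Cxcl12-creER P6 matrix by version 6.0.0. No source used here names the filters or strand settings.

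Kept barcodes had 500 genes or more and no more than 15% of UMIs from mitochondrial genes. Doublets were scored against 2 simulated doublets per cell, and the top scores were removed at 0.8% per 1000 cells (452, 10 and 256 cells), a number set by that rate. Each library was clustered alone (2000 variable genes without the members and the related gene lists, 30 components, 15 neighbours, Leiden resolution 1.0). Clusters were named from marker lists, requiring a score of 0.8, a lead of 0.15 and 3 detected markers. The values of these thresholds were picked with the clusters in view, and 14.4%, 33.2% and 13.9% of kept cells stayed unnamed.

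UMIs were summed per class and library over the 27040 shared genes. Intervals for a level are exact Poisson, for a ratio exact conditional binomial and for a share of cells exact binomial (Clopper-Pearson), all at 95%. A call is a 2-fold ratio with a pseudocount of 1 CPM among genes of at least 20 CPM on the higher side, in classes of at least 50 cells in both libraries. A level of 0 was bounded with 3 counts over the class. No test was run, since each group is 1 library. Calculations were tested on simulated data.

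The members, lists and rules were chosen with earlier results of these data known. Every member may be named, with Fos, Jun, Egr1, Hspa1a and Hspa1b given in every library and the 3 highest and 3 lowest ratios of each subgroup (at least 20 CPM and 50 UMIs) in each comparison. For the further lists these are the 2 highest and 2 lowest. Alternatives changed the pseudocount, filters, scaling, depth, clustering and naming. Software was Python 3.11.15, matplotlib 3.10.9, SciPy 1.17.1, NumPy 2.4.6, scikit-learn 1.9.0, pandas 2.3.3, leidenalg 0.10.2 and python-igraph 0.11.9.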

Additional observations from a re-analysis of the deposited data

Results flagged for a closer look

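In 3 cases a member was at least 2-fold higher in one cell class and at least 2-fold lower in another under the same pair of libraries. Each rests on 1 library per group, and none of the differences was tested. Btg2, the antiproliferative early gene whose promoter window holds a cyclic AMP response element, had a log2 ratio of P25 over Cxcl12-GFP P6 of 1.52 in pulp-like cells and -1.30 in endothelial cells. Btg1, its relative, had a log2 ratio of P25 over Cxcl12-creER P6 of 1.495 in connective tissue fibroblast-like cells and -1.89 in epithelial cells. Rhob, a small GTPase gene, had 1.26 and -1.67 in the same classes. The epithelial values compare keratin-led cells at P25 with a day 6 class of 88 cells led by Amelx and 25 led by keratin genes.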

How the results depend on the processing

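No paired analysis was possible because each group is 1 library. Of 12 values of the count of members higher in Cxcl12-GFP P6 than in Cxcl12-creER P6, 12 were within 1.5 times of the main count (20 to 23). The same held for 43 of 48 values for P25 over Cxcl12-GFP P6, 53 of 55 for P25 over Cxcl12-creER P6 and 101 of 120 between the classes of a library. For those beyond it, and for the reversals below, the cause was not tested. Comparing all kept cells without classes gave 0 members lower in place of both the endothelial and the ligament-like count and 5 higher in place of the pulp-like count for P25 over Cxcl12-GFP P6, and 29 higher in place of the ligament-like count for P25 over Cxcl12-creER P6. For P25 over Cxcl12-GFP P6 in ligament-like cells, CPM without mitochondrial, ribosomal, member and top genes gave 4 lower and resolution 0.5 gave 3. The mean of per-cell CPM gave 17 members higher in epithelial cells of P25 over Cxcl12-creER P6. Between the classes of Cxcl12-creER P6 it gave 16 lower in Schwann-like cells, 16 lower in epithelial cells and 2 higher in ligament-like cells. Between those of P25 it gave 3 higher in connective tissue fibroblast-like cells, 6 lower in ligament-like cells and 17 lower in odontoblast-like cells. Thinning to 1000 UMIs gave 0 higher in pulp-like cells of Cxcl12-GFP P6, 15 lower in Schwann-like cells, 5 higher in ligament-like cells and 10 higher in the osteoblast-like class of Cxcl12-creER P6, and 8 lower in ligament-like and 17 lower in odontoblast-like cells of P25. Naming clusters by the best list alone gave 0 higher in pulp-like cells of Cxcl12-GFP P6, 0 higher in the osteoblast-like class of Cxcl12-creER P6, and 3 higher in mural-like and 1 lower in osteoblast-like cells of P25. Resolution 0.5 gave 0 higher in pulp-like cells of Cxcl12-GFP P6, and resolution 1.5 gave 5 lower in ligament-like and 1 lower in osteoblast-like cells of P25.

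Of 196 called pairs of member and class, 9 changed direction in at least 1 setting. Without classes the log2 ratio was 0.44 for Btg2 in place of endothelial cells and -0.21 for Ier5 in place of pulp-like cells (P25 over Cxcl12-GFP P6). For P25 over Cxcl12-creER P6 it was -0.44 for Hsph1 in place of connective tissue fibroblast-like and of epithelial cells, 0.42 for Btg1 and 0.17 for Rhob in place of epithelial cells. Thinned to 1000 UMIs it was -0.22 for Dnajb1 in connective tissue fibroblast-like cells, and -0.48 for Fos, -0.46 for Dusp1 and -0.053 for Hsph1 in epithelial cells. With the mean of per-cell CPM it was -0.87 for Fos and -0.49 for Dusp1, and with CPM without the genes named above -0.10 for Fos, all in epithelial cells.

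Alternatives chosen after seeing the data used cells of at least 5000 UMIs or the largest ligament-like cluster of Cxcl12-creER P6 alone. Members higher were then 20 and 20 for Cxcl12-GFP P6 over Cxcl12-creER P6 in ligament-like cells and 17 and 19 for P25 over Cxcl12-creER P6. For P25 over Cxcl12-GFP P6 in pulp-like cells 5000 UMIs gave 19. The largest P25 cluster alone gave 5 in mural-like cells for P25 over Cxcl12-GFP P6, and the largest Cxcl12-creER P6 cluster alone gave 27 in epithelial cells for P25 over Cxcl12-creER P6. Depth limits the Cxcl12-creER P6 classes most, where several members rest on 0 to 3 counts.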

Other observations

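Further early response genes outside the member list were also compared between P25 and Cxcl12-creER P6. At least 2-fold higher at P25 were 22 of 27 in Schwann-like cells (2 lower), 22 of 26 in connective tissue fibroblast-like cells (0 lower), 13 of 22 in ligament-like cells (1 lower), 19 of 22 in osteoblast-like cells (1 lower) and 12 of 19 in epithelial cells (1 lower). Of all genes 20.4%, 11.4%, 6.53%, 7.23% and 57.8% were higher in these classes, in this order, so that the epithelial count was near the background. Other heat shock chaperones had 4 of 16 higher in Schwann-like cells (1 lower), 3 of 16 in connective tissue fibroblast-like cells (0 lower), 1 of 15 in ligament-like cells (1 lower), 3 of 15 in osteoblast-like cells (2 lower) and 14 of 15 in epithelial cells (0 lower). In epithelial cells 12 of 13 housekeeping genes were higher too. For P25 over Cxcl12-GFP P6 in ligament-like cells, 1 of 25 further early response genes was higher and 8 were lower. All these values use the same libraries as the members and are not independent of them.

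Over the 22 classes, cells with an Atf3 UMI could be compared in 7 classes at 1000 UMIs. In 7 of 7 Fos was found more often in cells with Atf3 than in cells without it, with intervals apart in 4. The same counts held for Jun.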
